A study of Mus musculus with 5 samples.

Results

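Maternally methylated imprinted control regions are CpG-rich stretches that acquire DNA methylation in the oocyte and keep it on the maternal chromosome in body tissues, while the paternal copy stays unmethylated. The regions studied here were 18 windows of the mm9 mouse genome, fixed by position and named after the imprinted gene or transcript that each is known to control: Mcts2, Nnat, Nespas, Gnas, Peg10, Mest, Nap1l5, Peg3, Snrpn, Inpp5f, Kcnq1ot1, Plagl1, Grb10, Zrsr1, Peg13, Slc38a4, Airn and Impact. A CpG was a member when its deposited total count was at least 10 in all 5 libraries. That left 778 of the 1235 CpGs listed in the windows, out of 1938565 autosomal CpGs that passed the same minimum. The position rule used no methylation value.

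As background, the methylated copy of such regions is protected after fertilisation by the zinc finger protein ZFP57, which binds the methylated hexamer TGCCGC and brings in KAP1 and the histone methyltransferase SETDB1. SETDB1 places methyl groups on lysine 9 of histone H3, so the maternal copy carries both DNA methylation and that mark. Methylation of lysine 36 of H3, placed by NSD and SETD2 enzymes, is read by the DNA methyltransferases DNMT3A and DNMT3B. In the oocyte, transcription across these regions and the lysine 36 mark go with the laying down of the imprint.

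Reduced representation bisulfite sequencing, which reads CpGs near MspI cutting sites, was done on 5 mouse libraries. The WT library was made from wild-type cells and has no replicate. Both K36M libraries come from mice that express a dominant negative H3.3 at lysine 36, and both K9M libraries from mice that express the lysine 9 counterpart. The mutant mice were given doxycycline at 2 mg/ml in drinking water, and the labels do not say whether the WT mouse was. The labels name the cells HSCs (hematopoietic stem cells) in the source field and describe sorting from peripheral blood in the growth protocol. The identity of the cells was not checked here, and the labels do not tie replicates to different mice. The p-values therefore measure the spread between these libraries, which may be technical. Where the spread was not above counting error, they cover only the counting error that the model assumes.

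Each level is expressed relative to a library plateau set to 100%, the median ratio of methylated to second counts in the most methylated 20% of 1 kb tiles. The deposited levels are not on a common scale. Among 218827 CpGs with a deposited value of at least 98% in K9M replicate 2, WT had a median of 54.1%, the K36M replicates 52.9% and 54.4%, and K9M replicate 1 56.5%. Over the windows the gap was narrower. Deposited values over the 18 windows had a median of 34.5% in WT, 34.1% and 35.5% in K36M, 37.2% in K9M replicate 1 and 41.6% in K9M replicate 2. On the plateau scale the same medians were 42.7% (WT), 42.4% and 43.8% (K36M) and 43.1% and 43.6% (K9M), so the library medians lay close together. A level on this scale can pass 100%, and a change that scaled a whole library cannot be seen on it.

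Promoter sequences show what the assay read. RefSeq promoters (build GRCm38.p6) were found by symbol for 14 of the 18 names, 25 promoters in all. A promoter was placed in the mm9 tables without coordinates, by the spacing of its CGs: every CpG listed in the stretch had to fall on a CG of the sequence, with at least 5 such CpGs and no other placement within 3 kb of the window. This placed 10 promoters. The 4 with the most measured CpGs are shown, 250 bases before the transcription start, because they hold the contrast among fully methylated, intermediate and unmethylated promoters that the values below describe. Capitals mark CpGs that passed the count minimum in all 5 libraries. The levels given for a promoter cover 300 bases, of which the 50 after the start are not printed, so they rest on more CpGs than the capitals show.
Mcts2 (GRCm38.p6, chr2:152686898-152687147, + strand): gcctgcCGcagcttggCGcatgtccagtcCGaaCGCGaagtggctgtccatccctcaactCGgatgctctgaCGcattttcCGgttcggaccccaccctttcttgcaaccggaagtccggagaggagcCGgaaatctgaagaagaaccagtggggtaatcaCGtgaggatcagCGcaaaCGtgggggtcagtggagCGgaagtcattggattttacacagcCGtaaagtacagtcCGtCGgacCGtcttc
Plagl1 (GRCm38.p6, chr10:13090582-13090831, + strand): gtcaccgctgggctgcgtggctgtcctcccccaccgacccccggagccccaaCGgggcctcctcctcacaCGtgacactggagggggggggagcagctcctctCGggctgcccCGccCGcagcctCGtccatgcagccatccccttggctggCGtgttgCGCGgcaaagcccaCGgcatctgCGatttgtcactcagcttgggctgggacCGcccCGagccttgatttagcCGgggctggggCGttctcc
Zrsr1 (GRCm38.p6, chr11:22971755-22972004, + strand): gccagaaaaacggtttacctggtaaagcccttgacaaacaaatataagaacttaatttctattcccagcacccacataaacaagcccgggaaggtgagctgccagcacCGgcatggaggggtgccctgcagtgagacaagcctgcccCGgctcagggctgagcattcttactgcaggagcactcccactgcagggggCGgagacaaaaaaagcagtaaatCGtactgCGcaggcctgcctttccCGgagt
Gnas (GRCm38.p6, chr2:174329756-174330005, + strand): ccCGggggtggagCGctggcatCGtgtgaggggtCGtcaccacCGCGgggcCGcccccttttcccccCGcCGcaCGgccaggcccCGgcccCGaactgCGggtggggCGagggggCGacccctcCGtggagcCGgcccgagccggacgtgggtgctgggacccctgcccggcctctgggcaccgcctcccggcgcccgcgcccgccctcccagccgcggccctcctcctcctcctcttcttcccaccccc

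All 26 CGs of the Plagl1 promoter coincided with listed mm9 CpGs, from 12810393 to 12810686 on chromosome 10, and 22 of them passed the count minimum. Their pooled level was 37.6% in WT, 38.1% and 42.5% in K36M, with 36.0% and 39.3% in K9M. In the Mcts2 promoter all 25 CGs coincided with listed CpGs, from 152512640 to 152512913 on chromosome 2, and 22 were measured. They stood at 95.8% in WT, 105% and 104% in K36M, with 102% and 100.3% in K9M, so this promoter was methylated throughout in every library. The Gnas promoter shown lies just past the end of the Gnas window, with 38 listed CpGs from 174155259 to 174155554. Its 18 measured CpGs were unmethylated, at 0.0938% in WT, 0.832% and 0.328% in K36M, with 0.548% and 0.681% in K9M. At Zrsr1, 8 CpGs were measured among 9 listed from 22871841 to 22872036 on chromosome 11. They were at 44.5% in WT, 57.7% and 44.1% in K36M, with 44.8% and 42.6% in K9M.

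The hexamer TGCCGC, sought on both strands, was in 8 of the 25 promoters and in 7 of the 14 genes. Over all 32851 RefSeq promoters of the same 300 bases, 11.6% held it. The Mest promoters from 30737800 and 30737803 overlap and share their matches. The share of genes is not comparable with the share of promoters, since some genes have several promoters. A match is a run of letters and no evidence of binding, and CpG content was not matched in this comparison. The hexamer in the Mcts2 sequence had a measured CpG, at 152512640, with 94.9% in WT, 101% ± 7.09 in K36M and 99.7% ± 7.16 in K9M (SD, n = 2 each). The CpG of the hexamer in the Plagl1 sequence, at 12810549, stood at 36.0% in WT, 38.1% ± 6.53 in K36M and 35.4% ± 0.927 in K9M (SD, n = 2 each). The letters were thus present in a promoter at full level and in a promoter at an intermediate level.

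**Figure D1:**
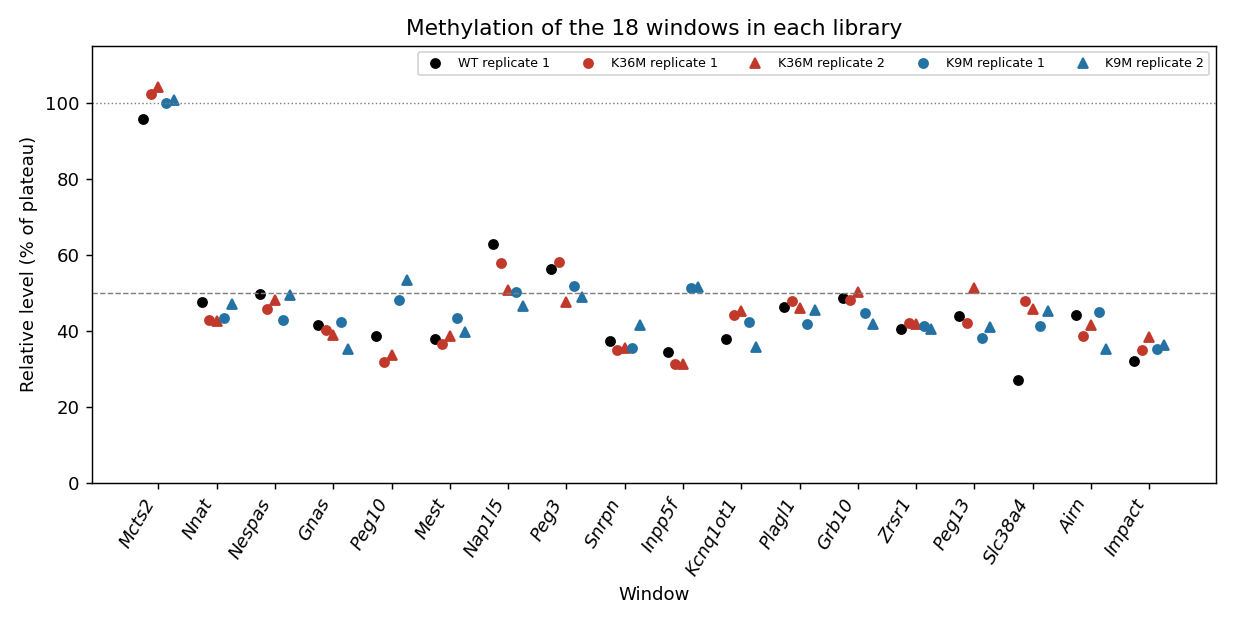
Relative methylation level of the 18 windows (y axis, percent of the library's plateau) by window (x axis), with a point for each library; dashed and dotted lines mark 50% and 100%. 17 windows lie between 27.2% and 62.9% in all 5 libraries, and Mcts2 lies at 95.8% to 104%.

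In 17 of the 18 windows every library stood between 27.2% and 62.9%. Without Mcts2, the mean over windows was 42.8% in WT, 42.7% ± 0.103 in K36M and 43.4% ± 0.157 in K9M (SD, n = 2 each). The means of the 5 libraries thus lay within a point of each other. The level was under 50% in all 5 libraries in 11 windows and over 50% in all 5 in none but Mcts2. The windows spread around their mean with an SD over 17 windows of 8.80 points (WT), 7.86 and 6.04 (K36M), 4.83 and 5.79 (K9M). Median totals per CpG ran from 23 to 135 counts over windows and libraries, and windows held from 5 (Peg3) to 133 (Nespas) measured CpGs. The 23 was in K9M replicate 2 at Gnas, and deposited totals of that library may be another quantity than in the others.

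Mcts2 was the exception. The gene is a retrocopy inside an intron of H13, and its promoter region is known as a maternally methylated imprint. The window, chr2:152512001-152514000, held 32 measured CpGs at 95.8% in WT, 102% and 104% in K36M, with 100.1% and 101% in K9M. None of the 32 had a median over the libraries of 75% or less, and the lowest was at 85.5%. The data therefore go against the label for the measured part of this window, 366 bases from 152512549 to 152512913. That part was at full level, not at an intermediate level, in all 5 libraries. The rest of the window and both flanks held no measured CpG. The 4 CpGs at the right edge of the measured stretch had single-CpG levels far above 100%, up to the limit of 150% set for single CpGs. The leftmost CpG, at 152512549, was at 140% in WT, with means of 117% in K36M and 112% in K9M. Single-CpG levels at both edges are therefore not reliable.

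The Gnas locus on chromosome 2 carries a pair of windows. Nespas, an antisense transcript across the Nesp promoter, starts in chr2:174119001-174126000, where 133 CpGs stood at 49.8% in WT, 45.8% and 48.1% in K36M, with 42.8% and 49.4% in K9M. Gnas encodes the stimulatory G protein alpha subunit, and its window chr2:174151001-174155000 is known as the exon 1A region, an alternative first exon. Its 84 CpGs stood at 41.4% in WT, 40.2% and 39.0% in K36M, with 42.4% and 35.2% in K9M. In the Nespas window WT was the highest of the 5 libraries, and K36M and K9M overlapped. In the Gnas window the K36M pair lay between the K9M replicates, just below WT.

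In WT, levels in the Gnas window fell from left to right. The 1 kb tile from 174153001 was at 49.6%, the tile from 174154001 at 31.4% and the next, from 174155001 and outside the window, at 0.234%. The tile from 174154001 ranged from 22.5% to 36.2% over the libraries, and the tile from 174155001, which holds the promoter printed above, from 0.234% to 0.458%. The drop at the right end of the window was thus present in all 5 libraries. Intermediate levels were not limited to the Nespas window itself. To its left, the tile from 174112001 ranged from 33.6% to 59.6% over the libraries and the tile from 174113001 from 39.2% to 45.2%, while the tile from 174116001, nearer to the window, was at 88.1% or more. The tile just to the right, from 174126001, ranged from 48.7% to 63.3%.

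Nnat encodes neuronatin, a small membrane proteolipid, and lies in an intron of Blcap. Its window, chr2:157385001-157389000, had 48 CpGs at 47.5% in WT, 42.8% and 42.5% in K36M, with 43.3% and 47.2% in K9M. The flanks differed sharply: the tile from 157383001, to the left, was at 71.7% to 86.9% over the libraries and the tile from 157391001, to the right, at 0.282% to 0.426%. The intermediate level thus lay between methylated sequence on the left and unmethylated sequence on the right. The change on the right was not seen, since no CpG was measured between 157387594 and the tile from 157391001. The CpG at 157387594 was at 69.0% in WT, with means of 71.6% in K36M and 78.9% in K9M.

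Among the windows on chromosome 6, Peg10 is a retrotransposon-derived gene needed in placenta, Mest encodes a hydrolase-like protein and Nap1l5 a nucleosome assembly protein family member inside an intron of Herc3. Peg10, chr6:4696001-4700000, was at 38.7% in WT, 31.9% and 33.8% in K36M, with 48.1% and 53.5% in K9M over 13 CpGs. Mest, chr6:30685001-30690000, was at 37.8% in WT, 36.7% and 38.7% in K36M, with 43.5% and 39.8% in K9M over 20 CpGs. Nap1l5, chr6:58856001-58858000, was at 62.9% in WT, 57.97% and 50.8% in K36M, with 50.3% and 46.5% in K9M over 18 CpGs. In Peg10 the K36M pair was low and the K9M pair high, with WT between them. In Nap1l5, WT was above the other 4 libraries. The flanks of Mest were methylated on both sides, at 71.9% to 81.6% in the tile from 30682001 and 78.9% to 96.5% in the tile from 30692001.

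Chromosome 7 holds 4 windows. Peg3 encodes a zinc finger protein, and its window chr7:6679001-6684000 had only 5 CpGs, at 56.3% in WT, 58.0% and 47.7% in K36M, with 51.8% and 48.8% in K9M. Snrpn encodes a splicing protein and its window, chr7:67147001-67151000, is the imprinting centre of the Prader-Willi and Angelman gene cluster. Its 25 CpGs stood at 37.5% in WT, 34.9% and 35.6% in K36M, with 35.6% and 41.5% in K9M. Inpp5f encodes an inositol phosphatase with an imprinted internal transcript. In chr7:135831001-135834000 its 14 CpGs stood at 34.4% in WT, 31.3% and 31.4% in K36M, with 51.2% and 51.5% in K9M, so the K9M pair lay above the other 3 libraries. Kcnq1ot1 is a long noncoding RNA that silences neighbouring genes on the paternal chromosome. Its window chr7:150480001-150483000 stood at 37.8% in WT, 44.2% and 45.1% in K36M, with 42.3% and 35.9% in K9M over 17 CpGs.

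Plagl1, Grb10 and Zrsr1 held 53, 120 and 93 measured CpGs. Plagl1, a zinc finger transcription factor, had 53 CpGs in chr10:12809001-12813000 at 46.3% in WT, 47.96% and 46.1% in K36M, with 41.8% and 45.6% in K9M. Grb10, a growth-restraining adaptor protein, had 120 CpGs in chr11:11925001-11927000 at 48.8% in WT, 48.0% and 50.3% in K36M, with 44.8% and 41.9% in K9M. Zrsr1, a splicing factor retrogene inside an intron of Commd1, had 93 CpGs in chr11:22871001-22875000 at 40.5% in WT, 42.0% and 41.8% in K36M, with 41.3% and 40.6% in K9M. The 5 libraries spanned 1.49 points at Zrsr1, the narrowest of the 18 windows. Its tiles varied more. K36M minus WT was 10.7 points in the tile from 22871001 and -10.9 in the tile from 22873001. It was 2.65 in the tile from 22872001 and -2.28 in the tile from 22874001.

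The remaining windows are those of Peg13, a noncoding RNA inside Trappc9, of Slc38a4, an amino acid transporter, of Airn, the noncoding RNA antisense to Igf2r, and of Impact, a regulator of translation. Peg13, chr15:72636001-72643000, stood at 44.0% in WT, 42.1% and 51.3% in K36M, with 38.2% and 41.1% in K9M over 39 CpGs. Airn, chr17:12934001-12937000, stood at 44.2% in WT, 38.7% and 41.5% in K36M, with 45.1% and 35.3% in K9M over 25 CpGs. Impact, chr18:13130001-13133000, stood at 32.1% in WT, 35.0% and 38.5% in K36M, with 35.4% and 36.4% in K9M over 29 CpGs. In Airn the K9M replicates lay on either side of the K36M pair, and in Impact WT was the lowest library.

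Slc38a4 had the lowest WT level of any window. In chr15:96884001-96887000 its 10 CpGs stood at 27.2% in WT (95% counting interval, exact binomial, 22.1% to 33.3%), 47.8% and 45.7% in K36M, with 41.2% and 45.3% in K9M. The window covers methylated as well as intermediate sequence: its 3 CpGs in the tile from 96884001 were at 72.7% in WT and 75.9% to 91.2% in the mutants, and its 7 CpGs in the tile from 96885001 at 20.5% in WT and 36.3% to 42.1% in the mutants. WT lay below all 4 mutant libraries at 9 of the 10 CpGs, as it did at 13.1% of intermediate CpGs outside the windows. This restates the window's low WT level at single CpGs. The 7 CpGs in the tile from 96885001 lie between 96885615 and 96885751, so neighbouring CpGs can share reads. Flanking tiles from 96881001 and 96889001 ranged from 80.5% to 101% and from 83.4% to 98.5% over the libraries.

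**Figure D2:**
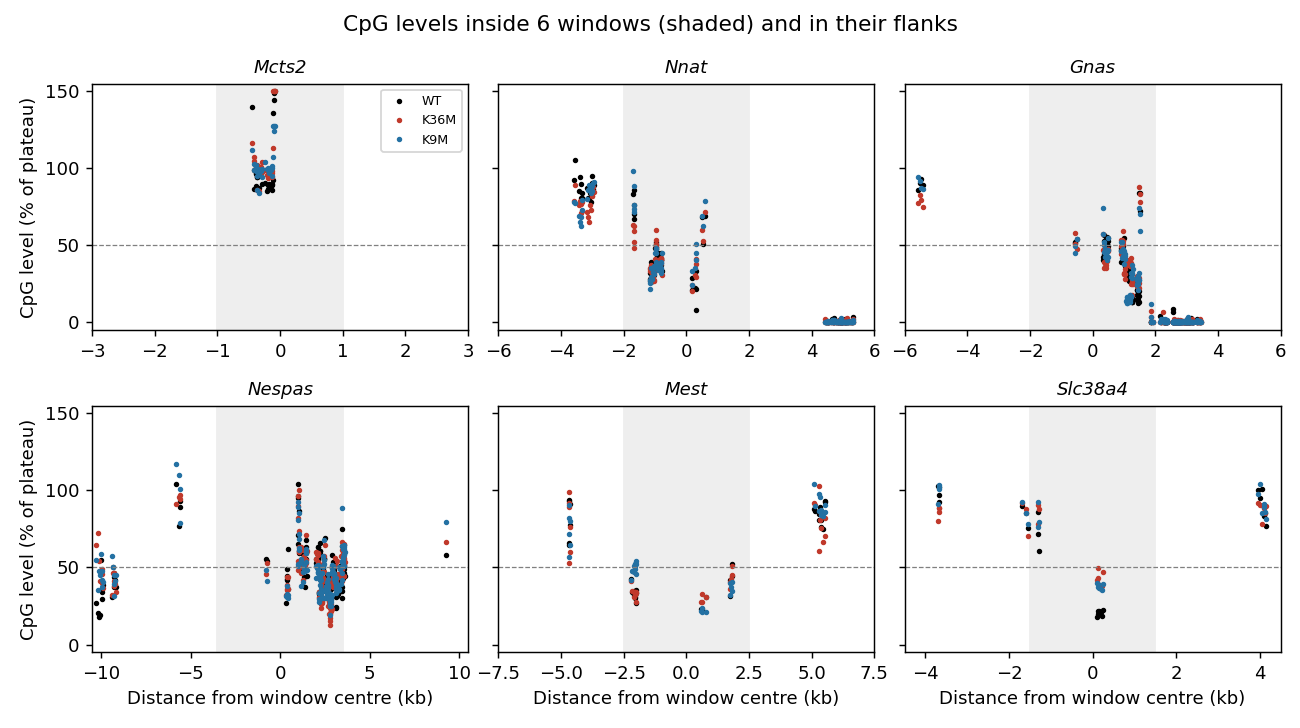
CpG levels (y axis, percent of plateau) by distance from the window centre in kb (x axis) for 6 windows, with WT, the K36M mean and the K9M mean as points; shading marks the window and the dashed line 50%. In Nnat, Gnas, Mest and Slc38a4 intermediate levels inside the window stand beside methylated or unmethylated flanks, in part across stretches without measured CpGs. Mcts2 lies near or above 100%.

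Of the CpGs in the 17 windows other than Mcts2, 672 of 746, or 90.1%, had a median level over the 5 libraries of 25% to 75%. With Mcts2 included the share was 86.4% of 778 CpGs, and outside the windows it was 6.58% of 1937787 autosomal CpGs. Of the other CpGs in the 17 windows, 61 were under 25% and 13 over 75%. Those under 25% were mostly in Gnas, with 24, and Zrsr1, with 20. By tile, 30 of the 35 1 kb tiles with at least 3 measured CpGs inside the windows lay at 25% to 75% in all 5 libraries, against 4.59% of all 171288 tiles. Among tiles holding at least 20 CpGs, 11 of 13 window tiles did so, against 1.68% of all 20408 such tiles. In the flanks, up to a window's own length on either side, 3 of 18 measured tiles did, 6 were over 75% in all 5 libraries and 6 under 25%. These flank tiles belong to only 6 of the 18 windows. The other windows had no flank tile with at least 3 measured CpGs. The tables hold no reads, so a level near 50% from 1 methylated copy cannot be told apart from a mixture of methylated and unmethylated cells.

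**Figure D3:**
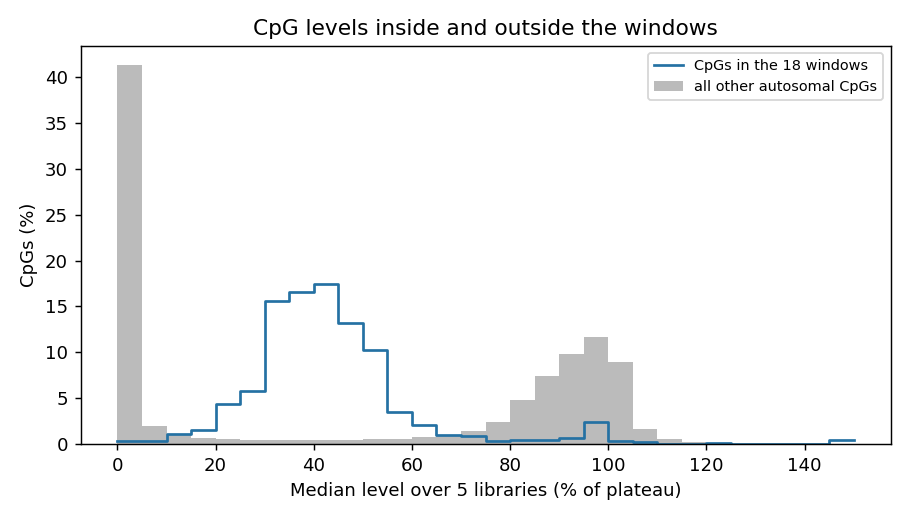
Share of CpGs (y axis, percent) by their median level over the 5 libraries (x axis, percent of plateau, bins of 5 points), for CpGs in the 18 windows (line) and all other autosomal CpGs (bars). Window CpGs peak between 30% and 50%, where few other CpGs lie, and the small peak of window CpGs near 100% is the Mcts2 window.

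Between K36M and WT no window passed the test (quasi-binomial logistic model moderated with limma, adjusted p under 0.05 over all tiles and at least 10 points), where 0.45% of 171271 features were called, 0.435% as lower. Among tiles outside the windows with a 5-library mean of 25% to 75% the called share was 2.92%. None of the 35 window tiles was called. At an unadjusted p under 0.05 there was 1 window and 2 tiles, where 4.9% of all features and 19% of intermediate tiles outside the windows passed. limma on relative levels also called 0 windows, with 0.17% of all features called. The differences ran from -8.50 points at Nap1l5 to 19.6 points at Slc38a4, with a median of -0.998, and 17 of 18 lay within 10 points. Without K36M replicate 1 the Nap1l5 difference was -12.1 points, and without K36M replicate 2 it was -4.86 points. K36M was lower in 10 windows and higher in 8. Both K36M libraries lay below WT in 8 windows (44.4%) and above it in 5 (27.8%), against 39.2% and 24.8% of all tiles and 58.2% and 16.9% of intermediate tiles outside the windows. Windows are longer than tiles and can hold more counts, and Mcts2 is not intermediate, so these shares are not of like features.

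After Nap1l5, the lowest differences from WT were at Peg10, -5.84 points, and Nnat, -4.85 points, each with an adjusted p of 1 in the moderated quasi-binomial fit. The highest were at Slc38a4, then Mcts2, 7.49 points, and Kcnq1ot1, 6.87 points. At Slc38a4 K36M was at 46.8% ± 1.51 (SD, n = 2) against 27.2% in WT (adjusted p 0.117, moderated quasi-binomial fit). With a minimum total of 20 the adjusted p was 0.0457, so that Slc38a4 became a call. K9M lay above WT there too, at 43.2% ± 2.84 (SD, n = 2). WT was thus the low library, and it has no replicate.

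Window tiles were set beside other tiles of intermediate level. To keep the choice of tiles apart from the comparison, tiles were taken at 25% to 75% in the K9M libraries. The median K36M minus WT difference was -0.612 points over 32 window tiles and -4.46 points over 14401 other tiles. K36M was lower in 50.0% of the window tiles and in 69.5% of the others, and the calls were 0% and 3.24%. Among tiles holding at least 10 CpGs, the medians were -2.60 points over 23 window tiles and -3.71 over 2450 others. K36M was lower in 52.2% and 71.6% of these. The difference between window tiles and other tiles was not tested, since tiles are not replicates.

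**Figure D4:**
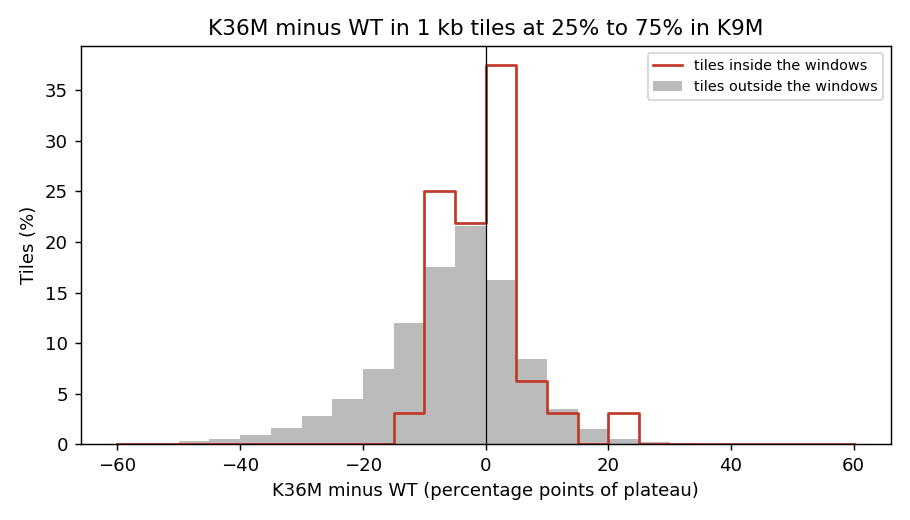
Share of 1 kb tiles (y axis, percent) by the K36M minus WT difference (x axis, points, bins of 5), for tiles at 25% to 75% in K9M, inside the windows (line, 32 tiles) and outside them (bars, 14401 tiles). The window tiles centre near 0, with a median of -0.612, and the other tiles reach further to negative differences, with a median of -4.46.

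In the comparison of K9M with WT, again no window and no window tile was called, where 0.0706% of all features were, 0.0245% as lower. The called share among intermediate tiles outside the windows was 0.33%. At an unadjusted p under 0.05 there were 5 windows and 9 tiles, where 2.67% of all features and 9.05% of intermediate tiles outside the windows passed. limma on relative levels called 0 windows, with 0.0333% of all features called. Differences ran from -14.5 points at Nap1l5 to 16.9 points at Inpp5f, with a median of -0.908, lower in 9 windows and higher in 9. Both K9M libraries lay below WT in 7 windows and above it in 7, or 38.9% each, against 27.3% and 37.3% of all tiles and 30.4% and 39.8% of intermediate tiles outside the windows. The same limit of unlike features holds for these shares. The mean over the 18 windows was 46.5% ± 0.125 (SD, n = 2) in K9M and 45.7% in WT.

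At Nap1l5, K9M stood at 48.4% ± 2.67 (SD, n = 2) against 62.9% in WT (95% counting interval 56.6% to 69.8%) (adjusted p 0.903, moderated quasi-binomial fit). Next came Peg3, at -5.99 points, and Grb10, at -5.39 points. The highest were Inpp5f at 16.9 points, Slc38a4 at 16.1 points and Peg10 at 12.1 points, with adjusted p of 0.680, 0.568 and 1 in the moderated quasi-binomial fit. None of the 6 was separated from WT after adjustment. In tiles at 25% to 75% in K36M, the median K9M minus WT difference was -3.12 points over 33 window tiles and 1.86 points over 20272 others. Among tiles holding at least 10 CpGs, the medians were -3.12 over 23 window tiles and 0.307 over 2673 others. These contrasts were not tested.

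K36M against K9M is the comparison with 2 libraries on each side. Here 2 of 18 windows (11.1%), Peg10 and Inpp5f, were called, both lower in K36M, where 1.19% of all features were called (1.13% as lower) and 8.25% of tiles outside the windows with a mean level of 25% to 75%. The count of window tiles called, 2 of 35 or 5.71%, is the same data, since each of these windows has a single measured tile. Both shares are near that of intermediate tiles. At an unadjusted p under 0.05 there were 4 windows, where 6.97% of all features and 26.7% of intermediate tiles outside the windows passed. K36M was lower than K9M in 6 windows and higher in 12, with a median difference of 0.914 points. Both K36M libraries lay below both K9M libraries in 5 windows (27.8%) and above them in 8 (44.4%), against 29.1% and 12.4% of all tiles, and 47.9% and 9.19% of intermediate tiles outside the windows. Mcts2 is among the 8, and windows are longer than tiles, so these shares are not of like features.

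At Inpp5f, K36M stood at 31.4% ± 0.0751 and K9M at 51.3% ± 0.160 (SD, n = 2 each), a difference of -19.98 points (adjusted p 0.0266, moderated quasi-binomial fit). WT, at 34.4% (95% counting interval 28.7% to 41.1%), lay near K36M. Both K36M libraries were below both K9M libraries at 8 of its 14 CpGs and above them at none, which restates the window's difference at single CpGs. Among the 127462 CpGs outside the windows with a median of 25% to 75%, 37.1% had both K36M libraries below both K9M libraries and 11.2% above. All 14 CpGs lie within 300 bases, from 135831562 to 135831860, so neighbouring CpGs can share reads. The 6 CpGs from 135831747 on had lower totals, and none of these 6 separated the pairs. K36M replicates 1 and 2 stood at 24.6% and 55.6% at 135831747, and at 22.4% and 61.8% at 135831772. The order was reversed at 135831718, with 33.2% and 25.9%. The small SD of K36M over the window thus does not show how far its replicates differed at single CpGs.

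At Peg10, K36M stood at 32.9% ± 1.32 and K9M at 50.8% ± 3.84 (SD, n = 2 each), a difference of -17.96 points (adjusted p 0.0176, moderated quasi-binomial fit). WT lay between them at 38.7% (95% counting interval 34.0% to 43.9%). Both K36M libraries were below both K9M libraries at 12 of 13 CpGs (37.1% of intermediate CpGs outside the windows), and all 13 lie within 136 bases, from 4697355 to 4697489. Both calls were lost without any single mutant library, at adjusted p from 0.149 to 0.264 for Peg10 and from 0.210 to 0.345 for Inpp5f in the moderated quasi-binomial fit, although the differences stayed between -15.3 and -20.7 points and between -19.8 and -20.1 points. With a term for the replicate number the adjusted p was 0.412 and 0.461. limma on relative levels, with 0.742% of all features called, kept the Inpp5f call and lost that of Peg10, with adjusted p of 0.0407 and 0.108. Over all other alternatives than leaving out a library, adjusted p ran from 0.0215 to 0.509 for Peg10 and from 0.0159 to 0.461 for Inpp5f.

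After these, the lowest difference was at Mest, -3.91 points, and the highest were at Peg13, 7.04 points, Nap1l5, 6.004 points, and Grb10, 5.77 points. Without a single mutant library, Peg13 moved to 2.41 (no K36M replicate 2) and 11.7 (no K36M replicate 1). Nap1l5 moved to 2.499 and 9.60 without K36M replicate 1 and 2, and to 3.95 without K9M replicate 2. Mest moved to -2.15 without K9M replicate 1. Within Mest, K36M minus K9M was -15.9 points in the tile from 30685001, 7.79 in that from 30688001 and 5.83 in that from 30689001. At Grb10, the window with the most CpGs after Nespas, K36M stood at 49.1% ± 1.59 and K9M at 43.4% ± 2.09 (SD, n = 2 each) (adjusted p 0.359, moderated quasi-binomial fit). Both K36M libraries were above both K9M libraries at 56 of its 120 CpGs and below them at 7, where 11.2% and 37.1% of intermediate CpGs outside the windows did so. Grb10 was named for its difference, and its CpGs are not independent. In tiles at 25% to 75% in WT, the median K36M minus K9M difference was 2.11 points over 32 window tiles and -5.97 points over 16368 others, and the calls were 6.25% and 7.33%. With at least 10 CpGs, the medians were 1.42 over 23 window tiles and -3.88 over 2436 others. The contrast between these medians was not tested.

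**Figure D5:**
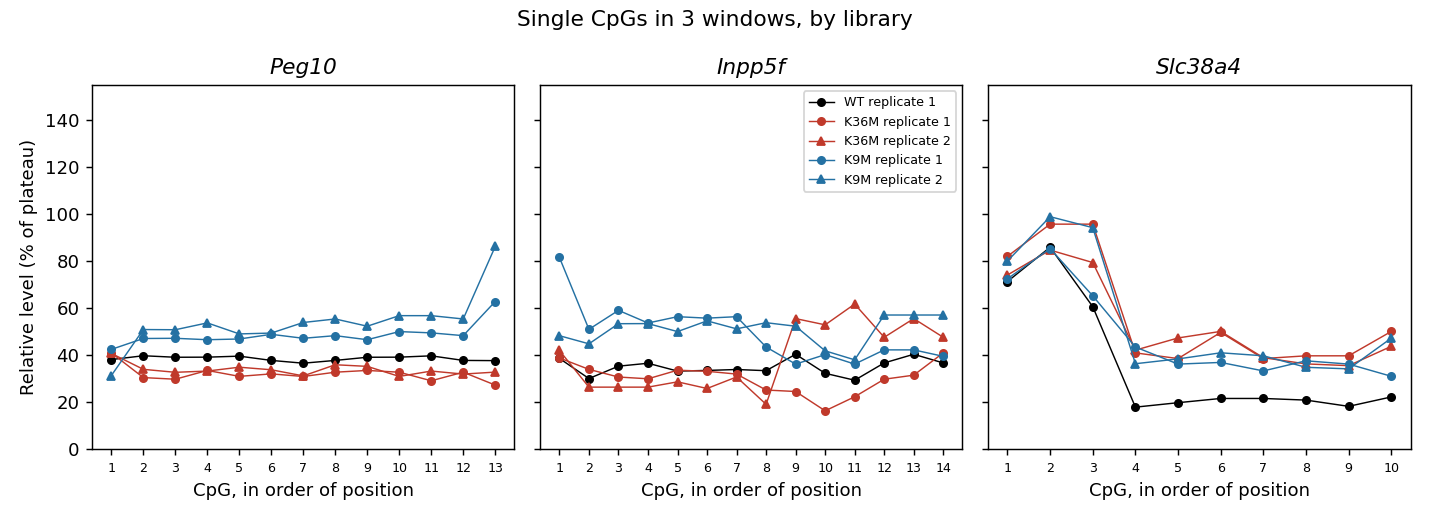
Level of each measured CpG (y axis, percent of plateau) in order of position (x axis) in the Peg10, Inpp5f and Slc38a4 windows, a line for each library. K9M lies above K36M at 12 of 13 CpGs in Peg10 and at the first 8 of 14 in Inpp5f, and WT lies below the 4 mutant libraries at 9 of 10 CpGs in Slc38a4.

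Across the libraries, 12 of the 18 windows spanned less than 10 points from the lowest to the highest library, and 3 spanned more than 20, namely Peg10, Inpp5f and Slc38a4. These 3 had 13, 14 and 10 measured CpGs, and 12 of the 18 windows had 20 or more. A narrow span of a window can cover tiles that differ in opposite directions. In Airn, K9M minus WT was 14.7 points in the tile from 12934001 and -12.0 in the tile from 12935001. Neither tile was called. Each library listed 3356656 to 3534966 CpGs, and the deposited totals summed to 175 M counts in WT, 133 M and 165 M in K36M, with 141 M and 112 M in K9M. The total of K9M replicate 2, 112 M, was read as the second count alone. It is therefore not comparable with the other sums as a depth. Bisulfite reads were amplified for 12 cycles with no molecular identifiers named in the labels, so counting intervals cover counting error only.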

How the data were processed

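DNA from sorted cells was cut with MspI, bisulfite-converted and amplified for 12 cycles, per the labels' protocols. Per the submitters' processing notes, cutadapt and BSMAP were used, with build mm9. Versions, settings and deduplication are not given in the sources used here. For every CpG, the authors' deposited tables list a total count beside the methylated fraction.

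The methylated count is level times total, rounded. In WT, K36M and K9M replicate 1 the second count is the total minus the methylated count; in K9M replicate 2 it is the deposited total. This reading is inferred from the values, and the step that made the difference is not known. The ratio of both counts was scaled to a plateau per library. Tiles were ranked by this ratio in each library, and the plateau is the median ratio of the 20% whose rank, averaged over libraries, was highest: 1.24 in WT, 1.22 and 1.26 in K36M, 1.38 and 0.954 in K9M.

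Each of the 171288 autosomal 1 kb tiles with at least 3 CpGs at a total of 10 or more in all 5 libraries, or each window in place of its tiles, was fitted with a logistic model with the log plateau as offset (2 residual degrees of freedom, both from the mutants, so the WT library is assumed to vary like them). The quasi-binomial dispersion was moderated with squeezeVar of limma 3.58.1 (R 4.3.3), held at or above 1 and tested with an F test and Benjamini-Hochberg adjustment. The dispersion was above 1 in 21.3% of tiles. It was 1 at Peg10, Inpp5f and Slc38a4, where p covers only the counting error that the model assumes. On the reading above, the methylated count of K9M replicate 2 is also part of its second count. The assumed binomial counting error is therefore not exact for that library. Counts were summed over CpGs, so a read over several CpGs entered more than once, in p-values and counting intervals alike. Single-CpG levels were capped at 150%. The fit was tested on simulated data, where it missed many of the tiles with a lowered K36M level. The absence of a call therefore does not show that a level was unchanged. Named with test values were the called windows and the 3 highest and 3 lowest differences of each comparison. Members, windows and the hexamer were chosen with earlier results of these data known. No mm9 annotation was used, so window names come from the position rule. Alternatives were coverage minimums of 5 and 20, a minimum of 10 on the second count, another plateau, deposited levels, limma, mean CpG levels, a replicate term and each mutant library left out.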

Additional observations from a re-analysis of the deposited data

Results flagged for a closer look

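Peg10 and Inpp5f are listed because the mutants differed from each other in the direct test of K36M against K9M. The differences were -17.96 and -19.98 points (adjusted p 0.0176 and 0.0266, moderated quasi-binomial fit). At Peg10 both K36M libraries lay below WT and both K9M libraries above it, by -5.84 and 12.1 points on average. At Inpp5f the averages were -3.04 and 16.9 points. The measured CpGs of these windows span 136 and 300 bases, so neighbouring CpGs can share reads, and the part of this in the result was not tested.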

How the results depend on the processing

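For K36M against K9M, 2 windows and 2 window tiles were called. Both counts fell to 1 with a minimum total of 5, with a plateau taken from 40% of tiles and with limma on relative levels, and to 0 with deposited levels, with the mean of CpG levels and with the replicate block. Without a mutant library they were 0 to 0 (1 residual degree of freedom), while calls over all 171271 features fell from 2044 to between 193 and 718. They were 2 with a minimum of 20 or with the minimum on the second count. For K36M against WT the count of 0 became 1 (Slc38a4) with a minimum of 20, for windows and tiles alike. For K9M against WT it was 0 under every alternative run. The replicate numbers share only a number: differences between replicates 1 and 2 in K36M and K9M had a correlation of 0.0259 over 16085 intermediate tiles, and the block, with 1 residual degree of freedom, left 0 calls among all features in all 3 comparisons (770, 121 and 2044 without it), the windows included.

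The mean over windows had no fixed direction between groups. K36M minus WT, 0.388 points, was 0.660 with a minimum of 5, 0.974 with the top 40% plateau, 1.67 with the mean of CpG levels, -0.545 in tiles at 25% to 75% in WT, -0.0298 without Mcts2, 0.115 in windows with at least 20 CpGs and 0.262 to 0.469 without a mutant library. K9M minus WT, 0.816 points, was 1.15 with a minimum of 20, 1.05 with the minimum on the second count, 0.486 with the top 40% plateau, 6.03 with deposited levels, 1.43 with the mean of CpG levels, 0.272 in tiles at 25% to 75% in WT, 0.593 without Mcts2, -0.935 in windows with at least 20 CpGs and 0.690 to 0.904 without a mutant library. K36M minus K9M, -0.428 points, was -0.108 and -0.816 with minimums of 5 and 20, -0.703 with the minimum on the second count, 0.488 with the top 40% plateau, -5.80 with deposited levels, 0.243 with the mean of CpG levels, -0.817 in tiles at 25% to 75% in WT, -0.623 without Mcts2, 1.05 in windows with at least 20 CpGs and -0.642 to -0.220 without a mutant library. Leaving out Mcts2 and keeping windows of at least 20 CpGs were chosen after seeing the data. The cause was not tested.

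With deposited levels 5 of the named differences changed sign: Peg3 and Grb10 in K9M against WT, at 3.09 and 1.48 points, and Grb10, Nap1l5 and Peg13 in K36M against K9M, at -1.26, -2.45 and -0.296 points. K9M replicate 2 is on another scale in that alternative. The other named differences kept their direction. Moves by over 1.5 times among them included, with deposited levels, Nap1l5 in K9M against WT (-14.5 to -1.09) and Mcts2 in K36M against WT (7.49 to 1.90).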
